A study of Mus musculus with 12 samples.

Results

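The TGF-β response of mouse mesangial cells (MMC) was compared between wild-type (WT) cells and cells of the lncMGC-KO5 line (KO). The quantity described is the difference in response: the log2 fold change of KO-TGF over KO-SD minus that of WT-TGF over WT-SD. A gene whose level differs equally between the genotypes in both conditions has a difference of 0 on this scale. All 12 of the 12 RNA-seq libraries entered it, 3 for each genotype and condition, named WT-SD and WT-TGF, and KO-SD and KO-TGF. Where a pair of log2 responses is given for a gene, WT comes first and KO second.

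SD cells were serum-depleted, and TGF cells received TGF-β at 10 ng/ml for 24 h. The SD libraries carry the same time label of 24 h. The KO mice were made with Cas9 and a pair of guide RNAs placed on either side of the start site of lncMGC, and they lack a short stretch of DNA within it. lncMGC is the long non-coding RNA that hosts the miR-379 microRNA cluster. KO5 is 1 of several lines obtained, and it is the only line measured here. The study calls the libraries of a group independent samples. How many mice gave the cells, and whether each library had a culture of its own, is not given in the sources used here, so p-values measure the spread between these libraries. Genotype and culture cannot be told apart. lncMGC itself was not analysed here. Mirg, which the study describes as a part of the far end of lncMGC, was at 2.14, 2.17 and 2.69 CPM in WT-SD, 3.45, 3.57 and 3.75 in WT-TGF, 3.31, 4.30 and 3.39 in KO-SD and 3.64, 4.65 and 4.52 in KO-TGF (CPM are counts scaled to a common library size with TMM factors). It was thus higher, not lower, in the SD libraries labelled KO, and in TGF the libraries overlapped. By RT-qPCR the study reported the opposite, a lower Mirg in KO5 cells than in WT cells. Mirg lies outside the deleted stretch and does not check the deletion, so WT and KO stand below for the labels of the libraries.

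Mesangial cells are contractile, pericyte-like cells that hold the capillary loops of the glomerulus. TGF-β binds a receptor complex that phosphorylates SMAD2 and SMAD3. In mesangial cells it is best known for driving extracellular matrix (ECM) production and contractile gene expression and for slowing the cell cycle, and in diabetic kidney disease this response feeds glomerular fibrosis.

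The libraries held between 19898050 and 22827706 counts on genes. The share of reads that fell outside annotated exons moved with the groups, from 15.18% to 15.38% in WT-SD and 12.23% to 12.52% in WT-TGF, and from 12.72% to 13.43% in KO-SD and 10.26% to 10.89% in KO-TGF. Its part in the results was not tested. Of 18 mesangial markers, 11 were tested. Pdgfrb, Vim, Cspg4 and Mcam were present in every library, while Thy1, Agtr1a and Tcf21 were at or near 0. Des was at 7.14, 8.76 and 7.10 CPM in WT-SD and 5.11, 6.06 and 5.68 in WT-TGF. In KO it was lower, at 0.551, 0.531 and 0.505 CPM in KO-SD and 0.161, 0.214 and 0.368 in KO-TGF. Itga8 reached at most 3.45 CPM and was not tested. The tested mesangial markers summed to 2480 to 2522 CPM in WT-SD and 3901 to 4009 in WT-TGF. Their sums were 3112 to 3240 CPM in KO-SD and 4904 to 5003 in KO-TGF. The podocyte marker Nphs1 and the endothelial markers Pecam1 and Cdh5 were below 0.2 CPM in every library. Other markers of these cells and of tubular epithelium were present and moved with the groups. The 7 tested of 17 tubular markers summed to 398 to 415 CPM in WT-SD, 197 to 215 in WT-TGF, 249.8 to 268 in KO-SD and 128 to 132 in KO-TGF. Pax8, a transcription factor of tubular epithelium, was at 241, 243 and 237 CPM in WT-SD, 126, 122.8 and 114 in WT-TGF, 153, 165 and 152 in KO-SD and 66.0, 63.3 and 63.9 in KO-TGF. The 10 tested of 15 podocyte markers summed to 1536 to 1542, 2595 to 2655, 1299 to 1322 and 2635 to 2666 CPM in the same order. Wt1, a transcription factor of podocytes, was at 97.8, 99.3 and 99.6 CPM in WT-SD, 68.1, 69.6 and 66.9 in WT-TGF, 23.8, 28.0 and 24.1 in KO-SD and 12.9, 11.4 and 10.7 in KO-TGF. The 2 tested of 15 endothelial markers, Ehd3 and Erg, summed to 34.3 to 35.1, 25.7 to 26.8, 18.4 to 20.5 and 9.46 to 11.9 CPM. The part of these markers in the results was not tested. The macrophage marker Adgre1 was at 7.59, 7.72 and 7.69 CPM in WT without TGF-β and 2.84, 5.48 and 3.56 CPM in WT with it, and at 0 in all KO libraries.

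Most genes that responded to TGF-β did so in the same direction in both genotypes, and where the response differed by over 1.5-fold, the most frequent case was a deeper fall in KO. Among 11530 genes tested, 8350 (72.4%) passed FDR <5% for a TGF-β response in WT and 8540 (74.1%) in KO, with edgeR's quasi-likelihood test and Benjamini-Hochberg adjustment. Of these, 3474 rose in both genotypes and 3675 fell in both. The difference in response passed FDR <5% for 2916 genes (25.3%). The log2 response was more negative in KO for 1916 genes (16.6%) and more positive in KO for 1000 (8.67%). At an additional size of over 1.5-fold, 614 genes (5.33%) were more negative and 125 (1.08%) more positive. The median difference over all genes tested was -0.03, and 5% of genes lay below -0.77 and 5% above 0.33.

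The balance between the directions at FDR <5% depended on the scaling of the libraries. The more negative genes made up 65.7% of the calls with TMM scaling, 79.4% with scaling by library size alone and 56.7% in DESeq2. With KO-SD library 1 as the reference of TMM they made up 51.6%. The excess of more negative genes among differences over 1.5-fold held under each of these, with 542 to 696 genes against 101 to 151. Counts of members by direction in the gene lists are those with TMM scaling. They are to be read beside the 16.6% of all genes tested that were more negative and the 8.67% that were more positive. The median differences of 11 lists were near 0 and had either sign under other scalings, filters or sets of libraries. They were SMADs, basement membrane, smooth muscle genes, MHC class I, IL-6 and JAK-STAT, and the respiratory chain. The rest of the 11 were ribosomal proteins, ER chaperones, NADPH oxidases, ISWI and other remodelers, and the Dlk1-Dio3 region with its flanks. The medians of the other 29 lists of processes kept their sign. The median over all genes also had either sign.

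Of the 614 more negative genes over 1.5-fold, 412 fell in both genotypes, 73 fell in KO with no call in WT, 54 rose in both, 45 rose in WT and fell in KO and 30 rose in WT with no call in KO. Of the 125 more positive genes, 65 rose in both genotypes, 20 rose in KO with no call in WT, 16 fell in WT with no call in KO, 11 fell in both, 11 fell in WT and rose in KO, and 2 had no call in either. At the other end, 6311 genes (54.74%) had a 95% interval of the difference that stayed within 0.32 of 0 on the log2 scale.

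**Figure D1:**
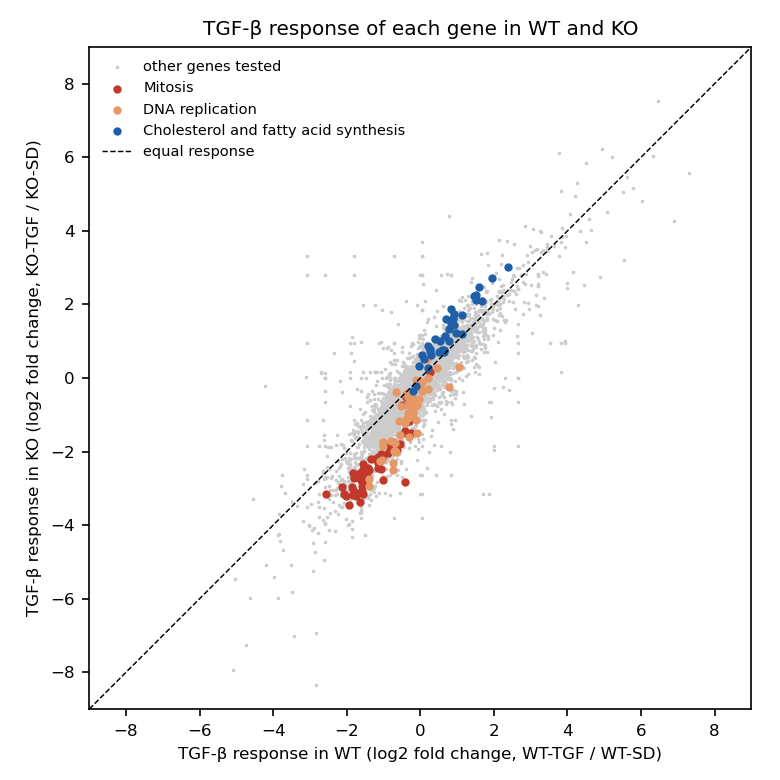
Log2 fold change with TGF-β of each of 11530 genes in WT (horizontal axis) and in KO (vertical axis), with the dashed line at equal responses. The mitosis genes (red, 56 genes) lie mostly below the line, the DNA replication genes (orange, 46 genes) also lie mostly below it, and the genes of cholesterol and fatty acid synthesis (blue, 36 genes) lie mostly above it.

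The genes of cell division gave the largest median difference of the 40 gene lists examined, markers of cell types apart. Nearly all of them fell with TGF-β in both genotypes (53 of 56), and most fell further in KO, from a higher level. Of the 56 mitosis genes tested (cyclins, kinetochore proteins, spindle motors and condensins), 49 had a more negative response in KO, 48 of them by over 1.5-fold, and none a more positive one, against 16.6% and 8.67% of all genes. Their median log2 response was -1.43 in WT and -2.52 in KO, and the median difference was -1.12, against -0.03 over all genes tested. The median level in KO was higher than in WT by 1.91 (log2) in SD and by 0.67 in TGF.

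The summed level of the tested mitosis genes was 539 to 617 CPM in WT-SD, 303 to 312 in WT-TGF, 1654 to 1700.0 in KO-SD and 407 to 420.1 in KO-TGF. The KO-SD libraries were the highest and the KO-TGF libraries lay below the WT-SD libraries, with no overlap between any of the groups. In bulk RNA, fewer dividing cells and less RNA of these genes per cell cannot be told apart.

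Ncaph, a subunit of the condensin I complex that compacts chromosomes, had the most negative difference among the members with at least 5 CPM in a group. It was at 4.96, 5.33 and 6.05 CPM in WT-SD, 3.36, 2.27 and 2.42 in WT-TGF, 17.4, 19.6 and 18.9 in KO-SD and 2.68, 2.67 and 2.84 in KO-TGF. Its KO-SD libraries were far above the others, and its KO-TGF libraries overlapped the WT-TGF libraries. The log2 response was -1.02 in WT and -2.77 in KO, a difference of -1.74 (standard error 0.198, adjusted p = 3.4e-08). Aurkb, the kinase of the chromosomal passenger complex, responded by -1.65 and -3.37 (adjusted p = 5.54e-05). Birc5 (survivin), a partner of Aurkb in that complex, responded by -1.56 and -3.16 (adjusted p = 1.98e-05). Mki67, the gene of the proliferation antigen Ki-67, was at 37.3, 35.1 and 44.9 CPM in WT-SD, 8.65, 10.3 and 8.89 in WT-TGF, 149, 153 and 147 in KO-SD and 16.5, 16.5 and 17.7 in KO-TGF. No library of one group overlapped another, and the difference in response was -1.08 (standard error 0.123, adjusted p = 5.61e-09).

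Cdk1, the kinase that drives entry into mitosis, and Kif11, the motor that separates the spindle poles, are described with their promoters. Both were added after their values were seen, as were Mki67, Ccnd1, Hmgcs1, Srebf1, Srebf2, Insig1, Flt1, Tgfbi, Col4a1, Col4a2, Hoxa9 and Hoxa10. Cdk1 was at 11.1, 11.3 and 13.2 CPM in WT-SD, 5.34, 5.13 and 6.27 in WT-TGF, 34.9, 35.1 and 35.5 in KO-SD and 7.55, 7.65 and 6.94 in KO-TGF. Its difference in response was -1.16 (standard error 0.122, adjusted p = 1.68e-08). Kif11 was at 8.59, 7.59 and 8.10 CPM in WT-SD, 2.27, 3.12 and 2.62 in WT-TGF, 31.6, 34.8 and 31.6 in KO-SD and 4.12, 4.49 and 4.15 in KO-TGF, and its difference was -1.35 (standard error 0.164, adjusted p = 1.88e-07). In both genes the KO-TGF libraries were above the WT-TGF libraries and below the WT-SD libraries.

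Promoters are shown because mitosis genes as a class are known for a pair of short elements near their start: the CCAAT box, bound by NF-Y, and the cell cycle homology region, bound by MuvB complexes. Cdk1 and Kif11 were picked among mitosis genes whose promoters hold both elements, so their matches were fixed in advance. The 250 bases before the start are given from RefSeq on GRCm38.p6, the assembly of mm10, with matches to CCAAT and TTTGAA on either strand in capitals. Cdk1 lies at chr10:69352913-69353162 on the minus strand and Kif11 at chr19:37376132-37376381 on the plus strand.
Cdk1: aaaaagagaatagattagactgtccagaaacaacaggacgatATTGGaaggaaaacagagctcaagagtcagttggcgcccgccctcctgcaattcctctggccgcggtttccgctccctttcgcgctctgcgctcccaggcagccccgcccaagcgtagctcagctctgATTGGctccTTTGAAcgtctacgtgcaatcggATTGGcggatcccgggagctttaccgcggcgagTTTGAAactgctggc
Kif11: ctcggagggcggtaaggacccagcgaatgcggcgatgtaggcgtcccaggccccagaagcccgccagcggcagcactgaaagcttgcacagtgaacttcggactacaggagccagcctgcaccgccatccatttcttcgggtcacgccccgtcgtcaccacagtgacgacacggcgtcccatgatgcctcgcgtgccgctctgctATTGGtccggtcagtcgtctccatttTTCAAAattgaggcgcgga
CCAAT was found in 34 of the 47 mitosis genes with a promoter in the RefSeq table (72.3%), in 36.9% of the tested genes with a promoter and in 34.5% of all 27025 promoters of the table. TTTGAA was found in 18 of the 47 (38.3%), in 10.3% of the tested genes with a promoter and in 16.3% of all promoters. CCAAT and TTTGAA can share a single letter where they meet, and a match is not a test of binding.

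DNA replication genes followed the same course with a smaller size. Of 46 tested, 33 had a more negative response in KO, 27 of them by over 1.5-fold, and 2 a more positive one. The median log2 response was -0.33 in WT and -0.96 in KO, with a median difference of -0.73. The median level in KO was 0.79 above WT in SD and 0.11 above in TGF. The summed level was 844 to 848 CPM in WT-SD, 673 to 706 in WT-TGF, 1115 to 1144 in KO-SD and 718 to 742 in KO-TGF.

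Cdc6, which loads the replicative helicase onto origins, was at 2.41, 2.39 and 1.82 CPM in WT-SD, 1.18, 1.38 and 1.38 in WT-TGF, 5.97, 5.31 and 5.82 in KO-SD and 1.02, 0.856 and 1.16 in KO-TGF. The KO-SD libraries were the highest and the KO-TGF libraries the lowest, so that the order of the genotypes turned over with TGF-β. The difference in response was -1.75 (standard error 0.280, adjusted p = 1.35e-05). Clspn (claspin), a replication checkpoint adaptor, responded by -1.38 in WT and -2.95 in KO (adjusted p = 8.05e-06). Uhrf1, which carries DNA methylation through replication, responded by -0.74 and -2.30 (adjusted p = 6.4e-09). Asf1b, a histone chaperone of replicating chromatin that is in neither list, was among the 12 most negative of the genes named for size. It was at 1.05, 1.26 and 1.27 CPM in WT-SD, 1.32, 1.03 and 1.04 in WT-TGF, 4.96, 4.83 and 5.87 in KO-SD and 1.23, 1.02 and 1.10 in KO-TGF. In WT the libraries of both conditions overlapped, and in KO every TGF library was below every SD library (difference in response -2.14, standard error 0.304, adjusted p = 1.94e-06).

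The more positive members were Rrm1, the large subunit of ribonucleotide reductase, and Dut, the enzyme that hydrolyses dUTP. Rrm1 fell less in KO (-0.67 and -0.37, adjusted p = 2.88e-06). Dut rose by 0.18 and 0.52 (adjusted p = 0.00122).

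E2F sites are the element best known at replication genes, and Cdc6 was picked among those whose promoter holds a match. The promoter given for Cdc6 in the RefSeq table lies at chr11:98907901-98908150 on the plus strand, before a transcript start that is inside the gene and downstream of its first annotated base, with its match to TTTNNCGC, here on the opposite strand, in capitals.
Cdc6: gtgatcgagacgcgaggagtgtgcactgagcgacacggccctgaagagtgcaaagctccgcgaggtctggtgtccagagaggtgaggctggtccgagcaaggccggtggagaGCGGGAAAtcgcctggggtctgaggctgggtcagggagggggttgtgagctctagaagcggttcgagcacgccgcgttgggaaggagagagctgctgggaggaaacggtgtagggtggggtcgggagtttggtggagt
The match was found in 9 of the 38 replication genes with a promoter in the table (23.7%), in 7.64% of the tested genes with a promoter and in 4.39% of all promoters.

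Among 27 G1 cyclins, E2F factors and CDK inhibitors, 12 were more negative and 5 more positive (median difference -0.14). Cyclins and E2F repressors that act around entry into S phase held the largest negative differences. Ccne2 (cyclin E2) had no call in WT (-0.18) and fell in KO (-1.59, adjusted p = 2.06e-06 for the difference). E2f8, a repressor of the E2F family, rose in WT (0.56) and fell in KO (-0.84, adjusted p = 1.5e-06), and its relative E2f7 responded by -0.93 and -2.28 (adjusted p = 1.26e-06). Ccnd1 (cyclin D1), which links growth signals to CDK4 and CDK6, was at 110.1, 114 and 109 CPM in WT-SD, 74.0, 69.7 and 76.4 in WT-TGF, 95.05, 98.1 and 93.3 in KO-SD and 36.5, 38.9 and 33.7 in KO-TGF. KO was lower than WT in both conditions, and further below it in TGF (difference -0.80, standard error 0.0621, adjusted p = 1.25e-11). The most positive member was an inhibitor of the cycle. Cdkn2b (p15INK4B), a known TGF-β target that blocks CDK4 and CDK6, was at 57.4, 64.7 and 63.5 CPM in WT-SD, 94.2, 94.0 and 98.4 in WT-TGF, 55.6, 52.6 and 52.1 in KO-SD and 137, 139 and 138 in KO-TGF. The KO-TGF libraries were the highest, while in SD the KO libraries were below the WT libraries. Its difference in response was 0.74 (standard error 0.0563, adjusted p = 9.86e-12). Gadd45a, a growth arrest gene, rose by 1.13 in WT and 1.40 in KO (adjusted p = 0.000178).

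**Figure D2:**
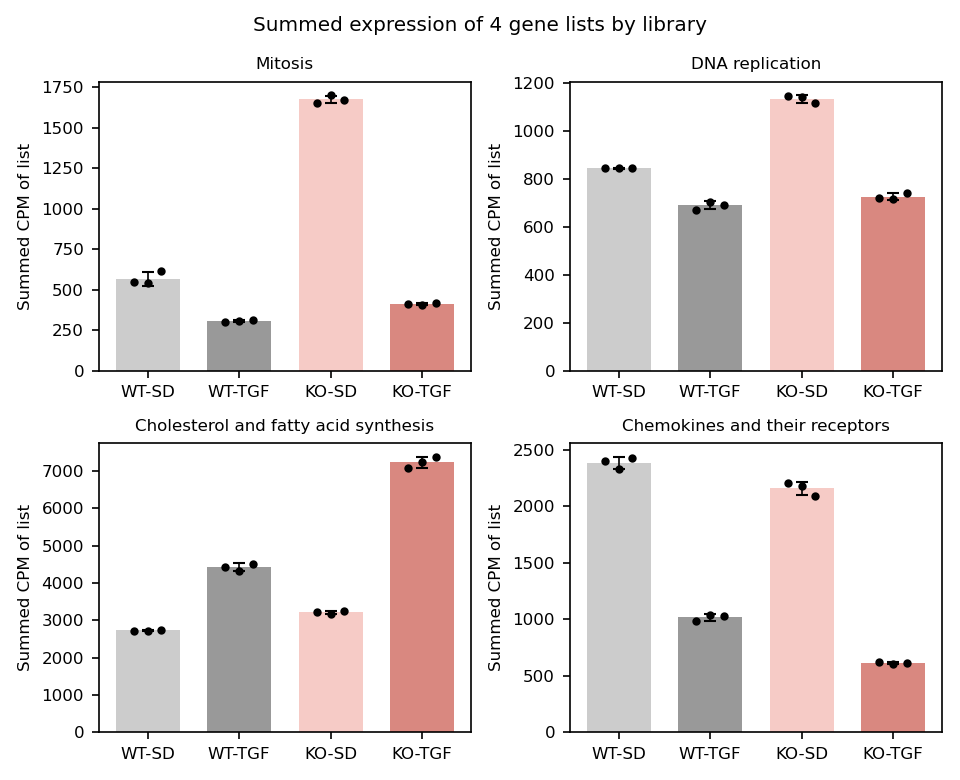
Summed CPM of the tested members of 4 gene lists in each group. Bars are means of 3 libraries, error bars are SD and points are libraries. The mitosis sum is 1654 to 1700.0 in KO-SD against 539 to 617 in WT-SD and closer in TGF, whereas the cholesterol and fatty acid sums are closer in SD than in TGF.

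The genes of cholesterol and fatty acid synthesis showed the opposite pattern. TGF-β raised them in both genotypes, and more in KO, with levels that were closer between the genotypes in SD than in TGF. They are controlled together by SREBP transcription factors, which are released to the nucleus when sterols in the endoplasmic reticulum run low. Of 36 tested, 30 had a more positive response in KO, 14 of them by over 1.5-fold, and 1 a more negative one. Of the 31 that rose in both genotypes, 28 rose more in KO and none less. The median log2 response was 0.74 in WT and 1.16 in KO, with a median difference of 0.52. The median level in KO was 0.088 above WT in SD and 0.58 above in TGF. The summed level was 2716 to 2757 CPM in WT-SD, 4316 to 4525 in WT-TGF, 3177 to 3254 in KO-SD and 7091 to 7385 in KO-TGF, and the groups did not overlap.

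Scd1, the desaturase that makes monounsaturated fatty acids, had the most positive difference. It was at 54.0, 57.1 and 52.7 CPM in WT-SD, 95.4, 92.7 and 106 in WT-TGF, 51.9, 50.1 and 56.6 in KO-SD and 186, 197 and 201 in KO-TGF. The SD libraries of the genotypes overlapped, and every KO-TGF library was above every WT-TGF library. The difference in response was 1.04 (standard error 0.0769, adjusted p = 1.65e-13). Fdps, which makes farnesyl pyrophosphate, was at 5.68, 5.85 and 6.10 CPM in WT-SD, 16.8, 16.4 and 20.1 in WT-TGF, 6.48, 6.47 and 5.46 in KO-SD and 32.7, 35.2 and 35.3 in KO-TGF, with the same overlap in SD and none in TGF (difference 0.90, standard error 0.137, adjusted p = 3.34e-06). Lss, which closes the first sterol ring system, responded by 0.71 in WT and 1.59 in KO (adjusted p = 2.36e-10).

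The regulators divided. Srebf2, the SREBP that drives cholesterol genes, responded by 0.84 in WT and 1.47 in KO (difference 0.62, standard error 0.0646, adjusted p = 3.81e-10). Srebf1, its relative best known for fatty acid genes, responded by 0.22 and 0.26 with no call for the difference (95% interval -0.069 to 0.16). Insig1, the sterol-responsive brake on SREBP, responded by 1.45 and 2.23 (adjusted p = 3.49e-09).

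Hmgcs1, which makes HMG-CoA, was at 110.1, 112 and 108 CPM in WT-SD, 208, 187 and 212 in WT-TGF, 125, 111 and 111 in KO-SD and 358, 347 and 357 in KO-TGF (difference 0.74, standard error 0.0690, adjusted p = 1.05e-11). Its SD libraries overlapped and its TGF libraries did not. Its promoter, at chr13:119690101-119690350 on the plus strand, is shown with the single match to the sterol regulatory element TCACNCCAC in capitals.
Hmgcs1: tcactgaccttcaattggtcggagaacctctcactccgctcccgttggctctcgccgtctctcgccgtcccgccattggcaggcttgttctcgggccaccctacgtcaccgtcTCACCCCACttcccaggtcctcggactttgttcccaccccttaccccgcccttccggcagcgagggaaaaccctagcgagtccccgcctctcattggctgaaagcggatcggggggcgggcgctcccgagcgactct
RefSeq promoters were in the table for 25 of the 36 genes of the list, under the 80% needed for a share over the list. Of these 25, only 1 held a match, that of Hmgcs1, which is shown for that reason. Over the tested genes with a promoter, 0.919% held a match.

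For several of the best known targets in the core of the TGF-β pathway no difference in response was called, and their intervals are given. Smad7, the inhibitory SMAD that TGF-β induces against itself, was at 72.3, 80.2 and 72.9 CPM in WT-SD, 141, 138 and 137 in WT-TGF, 60.6, 58.5 and 57.4 in KO-SD and 108, 107 and 108 in KO-TGF. The KO libraries were lower than the WT libraries in each condition and did not overlap them. The log2 response was 0.88 in WT and 0.87 in KO, and the 95% interval of the difference was -0.12 to 0.089. Tgfb1, the ligand gene itself, rose by 2.25 and 2.24 (interval -0.10 to 0.065). Its level in TGF was 288, 283 and 281 CPM in WT and 324, 334 and 337 CPM in KO, slightly higher in KO.

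Skil (SnoN), a SMAD corepressor, rose by 1.34 and 1.33 (interval -0.12 to 0.087). Inhba, which encodes activin A, rose by 2.12 and 2.09 (interval -0.22 to 0.15). Il11, a fibrogenic cytokine, rose from 1.5005, 0.997 and 1.32 CPM to 63.6, 59.3 and 64.9 CPM in WT and from 1.38, 1.30 and 1.05 CPM to 54.8, 55.5 and 57.0 CPM in KO. At these low SD counts its interval was wider, -0.58 to 0.30. For each of these 5 genes no difference was called, and the sign of the small difference changed with the scaling or with the libraries left out. Pmepa1, another feedback inhibitor, differed: it rose by 2.60 in WT and 2.29 in KO (difference -0.31, standard error 0.0437, adjusted p = 1.2e-06).

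In the list of TGF-β ligands, receptors and latency proteins, 7 of 13 genes were more negative and 3 more positive (median difference -0.19). Tgfb2 rose by 0.44 and 0.65 (adjusted p = 0.000676) and Tgfb3 by 0.40 and 0.58 (adjusted p = 0.000613). Ltbp2, a matrix protein related to the latency proteins, was at 612, 598 and 598 CPM in WT-SD, 657, 675 and 667 in WT-TGF, 341, 351 and 339 in KO-SD and 641, 641 and 622 in KO-TGF. KO was far below WT in SD and close to it in TGF (difference 0.74, standard error 0.0290, adjusted p = 3.55e-17). The latency proteins Ltbp1, Ltbp3 and Ltbp4 were among the more negative ones. Ltbp3 was at 305, 298 and 316 CPM in WT-SD, 334, 325 and 336 in WT-TGF, 350.2, 359 and 365 in KO-SD and 281, 289 and 285 in KO-TGF. Its KO libraries were above WT in SD and below WT in TGF, with no overlap (difference -0.44, standard error 0.0342, adjusted p = 7.22e-11). Itgb8, the integrin subunit that activates latent TGF-β, responded by -0.98 and -1.45 (adjusted p = 0.00825). Of 19 SMADs and pathway inhibitors, 4 (21.1%) were more negative and 1 (5.26%) more positive (median difference 0.0040), near the shares over all genes.

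In the BMP and activin family, 7 of 27 genes were more negative and 5 more positive (median difference -0.068). Bmp4, a BMP ligand of the kidney stroma, was at 142, 145 and 141 CPM in WT-SD, 98.5, 99.5 and 105 in WT-TGF, 96.3, 89.9 and 90.4 in KO-SD and 34.1, 34.5 and 33.9 in KO-TGF. The KO libraries were lower in SD and much lower in TGF (difference -0.93, standard error 0.0519, adjusted p = 1.47e-14). Id2, a BMP target, responded by -2.47 and -3.30 (adjusted p = 0.000282), whereas Id4 fell in WT (-0.98) with no call in KO (-0.19, adjusted p = 0.00209 for the difference). Bmpr1b, a BMP type I receptor, had no call in WT (0.056) and rose in KO (0.81, adjusted p = 0.00104).

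**Figure D3:**
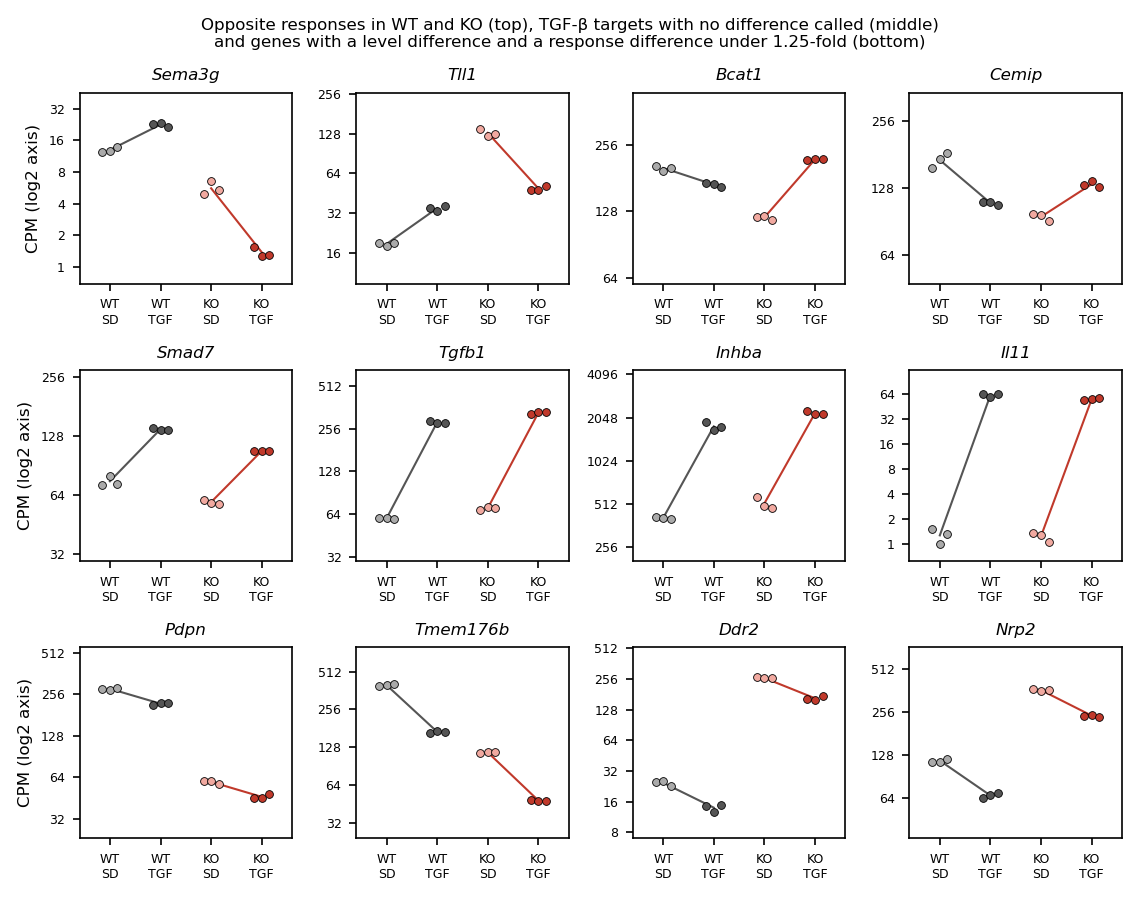
CPM of 12 genes in each of the 12 libraries on log2 axes, with lines that join group means within a genotype. The lines of Sema3g, Tll1, Bcat1 and Cemip run in opposite directions, those of Smad7, Tgfb1, Inhba and Il11 run nearly in parallel upward, and those of Pdpn, Tmem176b, Ddr2 and Nrp2 run nearly in parallel at different heights.

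In every list of ECM genes, more negative calls outnumbered more positive ones, most narrowly for basement membrane (8 and 7 of 21). Each list held members of either direction, and over all genes tested 16.6% were more negative and 8.67% more positive. The fibrillar collagens, which bear the tension of scar tissue, were higher in KO by a median of 0.67 (log2) in SD and 0.68 in TGF, while 6 of 10 had a more negative and 3 a more positive response (median difference -0.19). Col1a1, a chain of type I collagen, was at 4202, 4139 and 4506 CPM in WT-SD, 7787, 7950.4 and 8181 in WT-TGF, 9351, 10107 and 10399 in KO-SD and 15498, 15751 and 16107 in KO-TGF. Every KO library was above every WT library of the same condition. The log2 response was smaller in KO (0.90 against 0.67, difference -0.23, standard error 0.0470, adjusted p = 4.61e-05), whereas the rise in CPM was larger, 5833 against 3690.1.

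Col3a1, which forms type III collagen, was at 617, 576 and 654 CPM in WT-SD, 901, 944 and 964 in WT-TGF, 5372, 5344 and 5581 in KO-SD and 6039, 5934 and 6018 in KO-TGF. The KO libraries were far above the WT libraries in both conditions, and KO rose by 0.14 where WT rose by 0.60 (difference -0.46, standard error 0.0464, adjusted p = 2.77e-10). Col11a1 had no call in WT (0.035) and fell in KO (-0.73, adjusted p = 8.95e-19 for the difference). Col5a3 and Col5a1, of type V collagen, rose more in KO: Col5a3 by 3.16 in WT and 3.50 in KO (adjusted p = 2.92e-05), and Col5a1 by 1.69 and 1.80 (adjusted p = 0.00587), the latter with no call when scaled by library size alone.

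Among fibronectin, matricellular and elastic fibre proteins, 16 of 23 genes were more negative in KO, 9 of them by over 1.5-fold, and 2 more positive. The median response was 0.65 in WT and 0.26 in KO (median difference -0.40). Fn1 (fibronectin) was at 14027, 13929 and 14341 CPM in WT-SD, 24382, 24264 and 24639 in WT-TGF, 22981, 23113 and 23708 in KO-SD and 32662, 32876 and 33051 in KO-TGF. All KO libraries were above the WT libraries of the same condition, and the log2 rise was smaller, 0.50 against 0.79 (difference -0.29, standard error 0.0188, adjusted p = 8.46e-12). Spp1 (osteopontin) was at 419, 399.7 and 394 CPM in WT-SD, 282, 304 and 288 in WT-TGF, 1008, 926 and 870.3 in KO-SD and 290.4, 276 and 274 in KO-TGF. Its KO libraries were the highest in SD and overlapped WT in TGF (difference -1.27, standard error 0.0666, adjusted p = 6.39e-18). Ccn5, a growth-restraining CCN protein, rose in WT (0.44) and fell in KO (-0.72, adjusted p = 4.33e-15).

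Postn (periostin) rose by 0.52 and 0.12 (adjusted p = 0.00019). Thbs2 had a difference of -2.57, but its KO-SD libraries were spread over 17.96, 6.27 and 4.49 CPM, with a standard error of 1.24. Tgfbi, named for its induction by TGF-β, was low. It was at 0.5001, 0.347 and 0.592 CPM in WT-SD, 2.55, 2.50 and 2.72 in WT-TGF, 5.15, 4.39 and 5.05 in KO-SD and 4.07, 3.69 and 3.78 in KO-TGF. The KO-SD libraries were far above the WT-SD libraries, and the response was upward in WT and downward in KO (difference -2.76, standard error 0.293, adjusted p = 1.62e-09). Ccn2 (CTGF), a widely used marker of the TGF-β response, rose by 2.36 and 2.25 (difference -0.11, standard error 0.0364, adjusted p = 0.0230), a call that was lost in DESeq2 and under each other TMM reference. Tnc (tenascin C) was at 2014, 2045 and 2044 CPM in WT-SD, 4659, 4292 and 4432 in WT-TGF, 1429, 1436 and 1426 in KO-SD and 3698, 3792 and 3750.3 in KO-TGF. It rose more in KO, from a lower level (difference 0.26, called at FDR <5%).

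Of 9 other collagens, 5 were more negative and 2 more positive (median difference -0.73). Col12a1, which decorates type I fibrils, was at 1008, 1028 and 1043 CPM in WT-SD, 1598, 1649 and 1587 in WT-TGF, 2774, 2753 and 2802 in KO-SD and 1426, 1398 and 1401 in KO-TGF. It rose in WT and fell in KO, from the highest level in KO-SD to a KO-TGF level below WT-TGF (difference -1.63, standard error 0.0255, adjusted p = 6.59e-27). Col6a3, of the beaded filaments of type VI collagen, rose by 4.88 in WT and 2.75 in KO, from 1.18, 0.781 and 0.910 CPM in WT-SD and 7.58, 6.42 and 10.1 CPM in KO-SD to 33.0, 23.1 and 29.0 CPM and 50.6, 55.1 and 57.1 CPM (difference -2.13, standard error 0.347, adjusted p = 1.99e-07).

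In the proteoglycans, 12 of 24 genes were more negative, 7 of them by over 1.5-fold, and 2 more positive (median difference -0.19). Small leucine-rich proteoglycans, which regulate collagen fibril growth, held the most negative ones. Fmod (fibromodulin) was at 53.2, 48.4 and 52.5 CPM in WT-SD, 72.7, 70.5 and 72.2 in WT-TGF, 68.7, 70.7 and 68.2 in KO-SD and 29.9, 30.3 and 29.9 in KO-TGF. WT rose and KO fell, and the KO-TGF libraries were the lowest of all (difference -1.69, standard error 0.0557, adjusted p = 8.93e-20). Prelp responded by -1.94 and -3.98 (adjusted p = 2.32e-09). Cemip, which degrades hyaluronan, went the other way, and Cspg4 (NG2), a pericyte marker, was the other more positive member (difference 0.21).

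Of 33 genes of collagen processing, 13 (39.4%) were more negative and 6 (18.2%) more positive (median difference -0.059). P4ha3, a collagen prolyl hydroxylase, rose by 1.53 and 0.69 (adjusted p = 2.75e-06). Loxl4, a collagen crosslinking oxidase, rose by 0.81 and 1.26 (adjusted p = 0.000314). Pcsk5, a proprotein convertase, showed how a level difference and a response difference can point in opposite directions. It was at 43.7, 46.2 and 43.2 CPM in WT-SD, 155, 161 and 147 in WT-TGF, 6.20, 5.55 and 6.33 in KO-SD and 32.5, 30.6 and 28.7 in KO-TGF. Every KO library was below the WT libraries of its condition, and the rise in CPM was 24.6 in KO against 109.9 in WT. On the log2 scale the order was the opposite, with responses of 1.80 and 2.34 (adjusted p = 2.87e-05).

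Over the 3474 genes that rose in both genotypes, the rise in CPM was smaller in KO for 1292. Of these, 270 also had a smaller log2 response at FDR <5%, 992 had no call and 30 had a larger one. Of the 2182 with a larger rise in CPM, 475 had a larger log2 response, 1651 no call and 56 a smaller one.

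Among 34 matrix proteases and their inhibitors, 16 were more negative and 6 more positive (median difference -0.22). Mmp13, a collagenase, was at 17.6, 16.8 and 19.6 CPM in WT-SD, 12.1, 13.2 and 11.1 in WT-TGF, 33.4, 30.2 and 25.1 in KO-SD and 3.43, 2.99 and 3.73 in KO-TGF. KO was higher than WT in SD and lower in TGF, with no overlap (difference -2.56, standard error 0.198, adjusted p = 8.77e-14). Mmp3 (stromelysin) responded by -0.91 and -2.20 (adjusted p = 4.68e-06). Adamts12 rose by 1.76 and 0.85 (adjusted p = 3.31e-18). Timp1, the secreted inhibitor of metalloproteinases, rose by 2.24 and 2.52 (adjusted p = 1.57e-06). Mmp9, a gelatinase, was low before TGF-β. It was at 1.27, 0.607 and 1.18 CPM in WT-SD, 1.65, 1.78 and 1.83 in WT-TGF, 0.413, 0.579 and 0.321 in KO-SD and 8.84, 8.77 and 10.5 in KO-TGF, and only the KO-TGF libraries stood high (difference 3.62, standard error 0.391, adjusted p = 3.86e-09).

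Basement membrane genes were split evenly, with 8 of 21 more negative and 7 more positive (median difference 0.020). Col4a3, a chain of the type IV collagen of the glomerular basement membrane, was at 192, 204 and 198 CPM in WT-SD, 465, 459 and 496 in WT-TGF, 11.03, 14.6 and 14.04 in KO-SD and 19.5, 20.2 and 20.5 in KO-TGF. The KO libraries were far lower in both conditions, with level differences of -3.91 and -4.56 (log2, KO minus WT), and the log2 rise was smaller as well (difference -0.65, standard error 0.0876, adjusted p = 4.45e-07). Col4a1 and Col4a2, the ubiquitous type IV chains that accumulate in the diabetic mesangium, rose by 0.46 and 0.77 (adjusted p = 4.85e-09) and by 0.21 and 0.48 (adjusted p = 1.28e-08), more in KO. Col18a1, the source of endostatin, had no call in WT (-0.028) and rose in KO (1.09, adjusted p = 3.02e-15). Npnt (nephronectin), the ligand of integrin α8 in the mesangium, fell in WT (-0.90) with no call in KO (0.032, adjusted p = 2.82e-17). Col15a1 rose by 1.22 and 2.11 (adjusted p = 3.75e-05). Among 14 integrins and collagen receptors, 4 were more negative and 2 more positive (median difference -0.066), among them the collagen receptor Itga11, which rose by 1.70 and 1.15 (adjusted p = 2.29e-12).

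**Figure D4:**
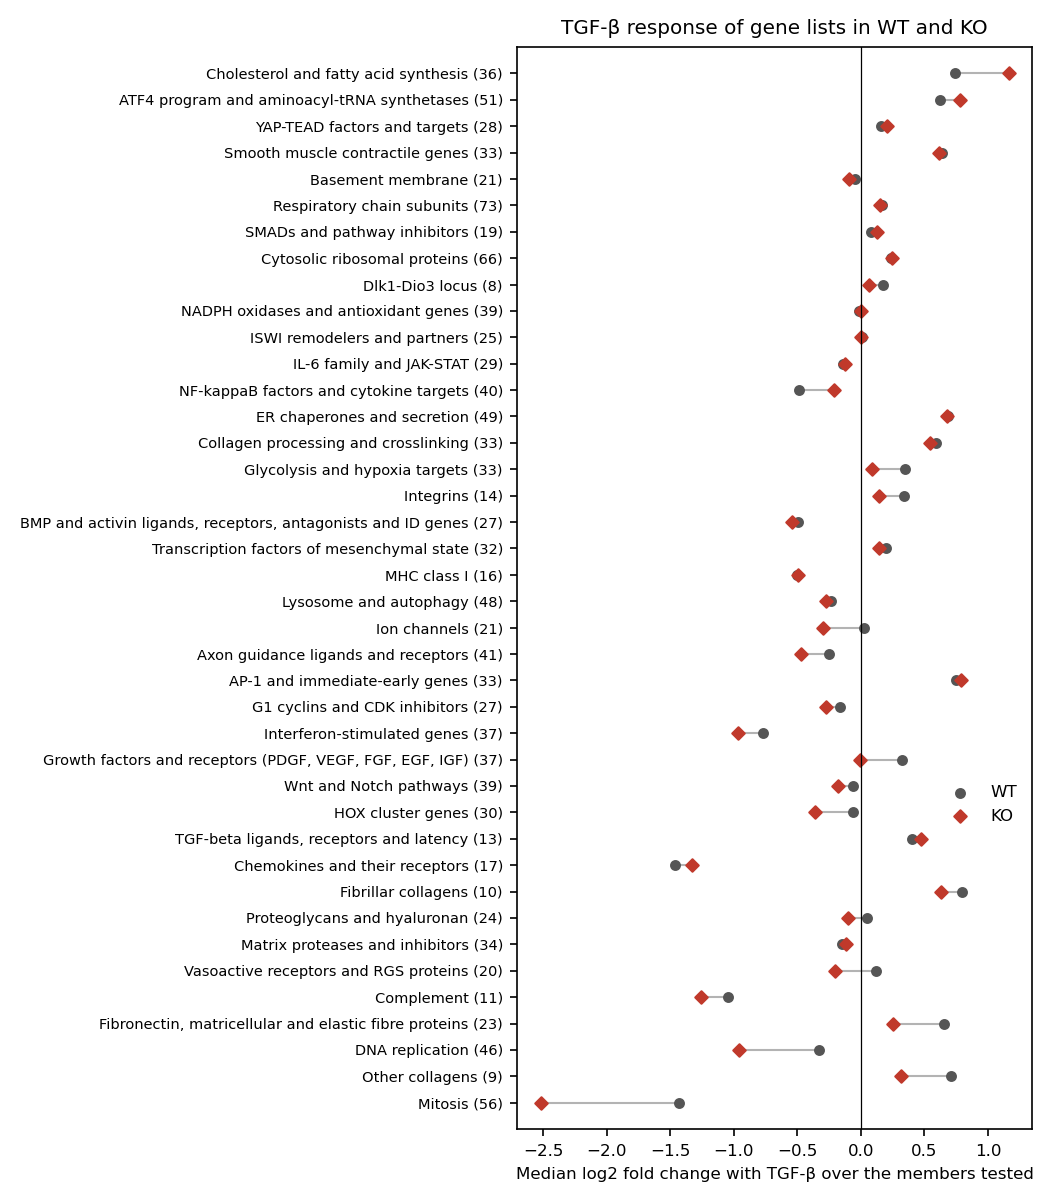
Median log2 fold change with TGF-β over the tested members of each of 40 gene lists (number of members in parentheses), in WT (circles) and KO (diamonds), ordered by the median of the difference of each member. Mitosis, with medians of -1.43 and -2.52, and DNA replication, with -0.33 and -0.96, are far apart, as is cholesterol and fatty acid synthesis on the other side, with 0.74 and 1.16.

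Some genes responded in opposite directions. Over all genes, 102 rose in WT and fell in KO, and 43 fell in WT and rose in KO, each at FDR <5% for both responses and for their difference. Sema3g, a secreted semaphorin of vessels and podocytes, was at 12.4, 12.7 and 13.8 CPM in WT-SD, 22.6, 23.5 and 21.4 in WT-TGF, 4.92, 6.52 and 5.37 in KO-SD and 1.55, 1.28 and 1.31 in KO-TGF. WT was above KO in SD, and the gap widened in both directions with TGF-β (difference -2.81, standard error 0.196, adjusted p = 1e-13). Tll1, a tolloid protease that trims procollagen, was at 19.3, 18.2 and 19.0 CPM in WT-SD, 35.1, 33.5 and 36.5 in WT-TGF, 138, 122.8 and 128 in KO-SD and 48.4, 48.5 and 51.3 in KO-TGF. The KO-SD libraries were the highest by far, and in TGF the genotypes came closer without overlap (difference -2.28, standard error 0.0765, adjusted p = 8.25e-21).

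Erg, an ETS factor best known in endothelium, was at 2.14, 1.91 and 2.002 CPM in WT-SD, 5.48, 4.41 and 5.98 in WT-TGF, 2.71, 2.12 and 2.02 in KO-SD and 1.23, 1.39 and 0.736 in KO-TGF. The SD libraries of the genotypes overlapped and the TGF libraries did not (difference -2.41, standard error 0.3003, adjusted p = 6.48e-08). The endothelial genes Pecam1 and Cdh5 were below 0.2 CPM throughout, while Ehd3, another endothelial marker, was at 32.9, 32.6 and 32.3 CPM in WT-SD, 20.2, 22.4 and 19.7 in WT-TGF, 17.8, 17.2 and 16.3 in KO-SD and 9.91, 10.5 and 8.72 in KO-TGF. Alcam, an adhesion molecule, was at 28.7, 31.1 and 28.4 CPM in WT-SD, 37.7, 34.1 and 38.9 in WT-TGF, 82.3, 77.9 and 76.0 in KO-SD and 30.4, 28.7 and 29.4 in KO-TGF, so that the KO-TGF libraries overlapped the WT-SD libraries (difference -1.74, standard error 0.0762, adjusted p = 6.39e-18). Csgalnact1, which starts chondroitin sulfate chains, rose in WT (0.97) and fell in KO (-0.42, adjusted p = 1.28e-16). Olfml3, a secreted olfactomedin-like protein, responded by 0.86 and -0.70 (adjusted p = 5.28e-08).

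In the other direction, Bcat1, which transaminates branched-chain amino acids in the cytosol, was at 206, 196 and 202 CPM in WT-SD, 172, 170.4 and 165 in WT-TGF, 121, 122 and 118 in KO-SD and 218, 221 and 222 in KO-TGF. WT was above KO in SD and below it in TGF, with no overlap (difference 1.12, standard error 0.0359, adjusted p = 9.24e-20). Cemip was at 158, 172 and 183 CPM in WT-SD, 111, 111 and 107 in WT-TGF, 97.9, 96.9 and 90.7 in KO-SD and 133, 138 and 129 in KO-TGF, with the same turnover of the genotypes (difference 1.13, standard error 0.0680, adjusted p = 9.39e-16). Kalrn, a guanine nucleotide exchange factor of small GTPases, responded by -0.41 and 0.28 (adjusted p = 8.1e-15). Rnf128, an E3 ubiquitin ligase, responded by -0.72 and 0.49 from a higher KO level (adjusted p = 0.000101), and Slfn2, of the Schlafen family, by -0.77 and 0.39 from a lower KO level in SD (adjusted p = 3.24e-05).

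The most negative difference of all by the criteria for named genes was that of Arc, an immediate-early gene of neurons. It was at 1.23, 1.04 and 1.23 CPM in WT-SD, 19.1, 17.7 and 16.7 in WT-TGF, 2.57, 2.03 and 2.38 in KO-SD and 4.71, 4.44 and 4.52 in KO-TGF. Its rise was steep in WT and small in KO, and in SD the KO libraries were the higher ones (difference -2.97, standard error 0.217, adjusted p = 2.17e-12). Srpx2, a secreted sushi-repeat protein, rose in WT (2.25) with no call in KO (-0.25, adjusted p = 2.93e-10). Sorbs2, an adaptor of stress fibres, was at 608, 625 and 613 CPM in WT-SD, 159, 163 and 156 in WT-TGF, 366, 354 and 356 in KO-SD and 20.7, 22.6 and 23.4 in KO-TGF. KO was lower in both conditions and fell the further (difference -2.06, standard error 0.0471, adjusted p = 3.43e-24). Lgi2 responded by -1.40 and -3.45 (adjusted p = 1.58e-09).

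The most positive difference by the same criteria was that of Abcb1a, the multidrug efflux pump, at 3.14, 2.69 and 3.28 CPM in WT-SD, 5.48, 4.77 and 4.74 in WT-TGF, 1.15, 1.01 and 0.596 in KO-SD and 6.32, 6.58 and 6.94 in KO-TGF. KO was below WT in SD and above it in TGF (difference 2.12, standard error 0.247, adjusted p = 3.04e-08). Fbxo32 (atrogin-1), a ubiquitin ligase subunit, was at 60.1, 62.5 and 62.7 CPM in WT-SD, 95.6, 95.4 and 92.6 in WT-TGF, 63.9, 61.8 and 62.9 in KO-SD and 243, 243 and 244 in KO-TGF. The SD libraries overlapped and the KO-TGF libraries stood far above the rest (difference 1.34, standard error 0.0405, adjusted p = 6.96e-20). Aldh1a3, which makes retinoic acid, rose by 4.51 in WT and 5.85 in KO (adjusted p = 2.33e-14), and here the KO level was lower in both conditions. Slco2a1, the prostaglandin transporter, rose by 0.10 and 1.32 (adjusted p = 3.77e-16). Tafa1, a secreted peptide gene, had no call in WT (0.036) and rose in KO (1.18, adjusted p = 4.18e-09).

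Most smooth muscle genes rose in both genotypes, and their differences in response went both ways. Of 33 smooth muscle genes, 25 rose in both genotypes, 5 were more negative and 9 more positive (median difference 0.043), and the median response was 0.64 in WT and 0.61 in KO. Acta2 (α-smooth muscle actin) was at 1495, 1589 and 1617 CPM in WT-SD, 2955, 2857 and 2978 in WT-TGF, 3321, 3228 and 3198 in KO-SD and 6251, 6309.6 and 6304 in KO-TGF. KO was higher in both conditions, and the responses of 0.90 and 0.95 gave an interval of -0.016 to 0.12 for the difference, which was called under 1 of the other TMM references. Tagln (SM22α) rose by 1.73 and 1.57 (adjusted p = 0.000126). Mylk, the myosin light chain kinase, responded by -0.91 and -1.89 (adjusted p = 4.36e-15), and Synm (synemin) by -1.10 and -1.85 (adjusted p = 1.9e-09).

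Of 28 YAP-TEAD factors and targets, 5 were more negative and 10 more positive (median difference 0.060). Ankrd1, a standard readout of YAP, rose by 1.05 and 1.65 (adjusted p = 1.35e-11). Yap1 itself fell in WT (-0.11) and rose in KO (0.17, adjusted p = 5.1e-07). Of 33 AP-1 and immediate-early genes, 12 were more negative and 3 more positive (median difference -0.13). Klf2 rose in WT (0.63) and fell in KO (-0.51, adjusted p = 1.16e-07), and Maff rose by 1.07 and 1.71 (adjusted p = 8.39e-07).

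Growth factor genes moved in both directions, with 14 of 37 more negative and 6 more positive (median difference -0.17). Pdgfb, the mitogen of mesangial cells, was at 15.2, 14.5 and 14.5 CPM in WT-SD, 70.6, 66.2 and 69.0 in WT-TGF, 3.26, 4.01 and 3.39 in KO-SD and 34.8, 37.6 and 36.4 in KO-TGF. KO was lower in both conditions and rose by a larger fold (difference 1.13, standard error 0.108, adjusted p = 6.39e-10). Vegfa rose by 1.14 and 1.51 (adjusted p = 4.77e-09), while Flt1, a VEGF receptor, rose by 1.13 and 0.33 (adjusted p = 5.39e-08). Nrg1, an ERBB ligand, rose by 0.32 and 1.07 (adjusted p = 2.36e-13). Igfbp5, which binds IGFs, rose by 1.41 and 0.50 (adjusted p = 2.53e-06). Pdgfrl rose in WT (0.98) and fell in KO (-0.36, adjusted p = 2.71e-12).

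In the Wnt and Notch pathways, 18 of 39 genes were more negative and 3 more positive (median difference -0.17). The secreted Wnt antagonists Frzb and Sfrp1 fell further in KO, Frzb with responses of -1.28 and -2.52 (adjusted p = 0.000462) and Sfrp1 with -1.89 and -2.74 (adjusted p = 3.04e-05). Axin2, a Wnt target, rose by 0.21 and 0.86 (adjusted p = 0.000183). The Notch target Hey1 rose by 1.49 and 0.54 (adjusted p = 0.00299), whereas Hey2 had no call in WT (-0.19) and rose in KO (0.59, adjusted p = 0.000273).

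Among 20 vasoactive receptors and RGS proteins, which set the tone of mesangial cells, 10 were more negative and 4 more positive (median difference -0.26). Ednra, the endothelin receptor A, was at 6.96, 6.72 and 7.37 CPM in WT-SD, 6.57, 8.47 and 7.41 in WT-TGF, 6.89, 7.34 and 7.06 in KO-SD and 2.73, 3.16 and 3.10 in KO-TGF. The KO-TGF libraries were the lowest and the other groups overlapped (difference -1.34, standard error 0.165, adjusted p = 1.69e-07). Its ligand gene Edn1 rose by 0.85 in WT and 1.76 in KO (adjusted p = 1.41e-05). Of the serotonin receptors, Htr2b rose by 4.44 and 2.54 (adjusted p = 8.59e-08) and Htr2a by 0.15 and 0.94 (adjusted p = 1.95e-09). Rgs5, a pericyte marker that dampens G protein signaling, responded by -0.36 and -1.45 (adjusted p = 7.43e-11).

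Inflammatory genes mostly fell with TGF-β in both genotypes, and calls of a more negative response outnumbered the others among chemokines. Of 17 chemokines and receptors, 12 fell in both, 6 were more negative and 2 more positive (median difference -0.19). The median response was -1.46 in WT and -1.33 in KO, the opposite order to the median difference. Ackr3, the scavenger receptor of CXCL12, was at 109.8, 108 and 108 CPM in WT-SD, 22.2, 21.7 and 21.4 in WT-TGF, 56.9, 53.7 and 53.7 in KO-SD and 3.32, 2.73 and 3.15 in KO-TGF. KO was lower than WT in both conditions and fell further (difference -1.84, standard error 0.105, adjusted p = 1.75e-15). Cxcl1, a neutrophil chemokine, responded by -1.62 and -3.02 (adjusted p = 2.63e-14). Cx3cl1 (fractalkine) rose by 0.92 and 1.26 (adjusted p = 3.36e-07). The summed level of the list was 2326 to 2429 CPM in WT-SD, 981 to 1042 in WT-TGF, 2094 to 2202 in KO-SD and 601 to 620.0 in KO-TGF, a sum led by Cxcl12, the most abundant member without TGF-β.

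Of 37 interferon-stimulated genes, 32 fell in both genotypes, 11 were more negative and 1 more positive (median difference -0.16). Tap1, the peptide transporter, responded by -0.77 and -1.22 (adjusted p = 0.000177). Of 40 NF-κB factors and cytokine targets, 10 were more negative and 4 more positive (median difference -0.047). The Toll-like receptor genes Tlr4 (-0.96 and -1.34, adjusted p = 0.000204) and Tlr2 (-1.10 and -1.45, adjusted p = 0.00331) fell further in KO, and Csf1, the macrophage growth factor, fell in WT (-0.49) and rose slightly in KO (0.051, adjusted p = 2.98e-14). Of 11 complement genes, 10 fell in both genotypes and 5 were more negative (median difference -0.26), among them the protease C1s1 (-1.05 and -1.42, adjusted p = 1.14e-07). In the IL-6 and JAK-STAT list, 4 of 29 were more negative and 7 more positive (median difference -0.039), and in MHC class I 1 and 1 of 16 (median difference -0.071).

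Macrophage markers moved with the groups beside these results. Their 7 tested members summed to 36.8 to 42.0 CPM in WT-SD, 19.4 to 24.2 in WT-TGF, 8.45 to 9.68 in KO-SD and 2.83 to 3.36 in KO-TGF. C1qa, C1qb and C1qc were at 0 in all KO libraries, and Ptprc was below 1 CPM in every library. Their part in the results on inflammatory genes was not tested.

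Few genes of the respiratory chain and of the ribosome were called. Of 73 respiratory chain subunits, 1 was more negative and 3 more positive (median difference 0.020), and of 66 cytosolic ribosomal proteins 3 were more negative and none more positive (median difference -0.017). Their median responses were 0.16 and 0.15 for the respiratory chain and 0.24 and 0.24 for ribosomal proteins, in WT and KO. All but 1 of 49 genes of ER chaperones and secretion rose in both genotypes, by a median of 0.69 and 0.68, with 9 more negative and 3 more positive (median difference -0.055).

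The ATF4 program, which supplies amino acids and charged tRNA under stress, rose in both genotypes in 43 of 51 genes, with 11 more negative and 15 more positive (median difference 0.070). Psat1, of serine synthesis, was at 24.4, 24.4 and 29.3 CPM in WT-SD, 36.6, 37.6 and 36.9 in WT-TGF, 60.3, 60.8 and 62.0 in KO-SD and 61.0, 59.3 and 63.5 in KO-TGF. It rose in WT, and the KO libraries of both conditions overlapped at a higher level (difference -0.51, standard error 0.0730, adjusted p = 1.74e-06). Cth, of cysteine synthesis, rose by 1.16 and 1.71 (adjusted p = 0.000268), and Slc1a5, a glutamine carrier, by 0.20 and 0.64 (adjusted p = 5.58e-05).

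Of 33 glycolysis and hypoxia genes, 11 were more negative and 4 more positive (median difference -0.065). Slc16a1, the lactate transporter MCT1, responded by -0.58 and -1.48 (adjusted p = 2.03e-10), and Pfkfb3, which activates glycolysis, rose in WT (0.52) and fell in KO (-0.30, adjusted p = 3.07e-09). Of 48 lysosome and autophagy genes, 15 were more negative and 4 more positive (median difference -0.082). Of 39 NADPH oxidase and antioxidant genes, 11 were more negative and 6 more positive (median difference -0.023). Nox4, the oxidase that TGF-β induces in mesangial cells, was lower in KO in both conditions and rose by 1.66 and 1.62 (interval of the difference -0.17 to 0.10). Mgst1, a glutathione transferase, responded by -0.91 and -1.99 (adjusted p = 2.6e-09), while Gclc, which starts glutathione synthesis, rose by 0.11 and 0.60 (adjusted p = 9.44e-10).

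HOX genes, which keep the positional identity of mesenchymal cells, are given by cluster. Of 30 tested, 11 (36.7%) were more negative in KO and none more positive (median difference -0.18). These were 6 of 9 genes of the HoxA cluster, 4 of 8 of HoxC, 1 of 8 of HoxB and 0 of 5 of HoxD. The median difference was -0.40 in HoxA, -0.22 in HoxC, -0.012 in HoxB and -0.071 in HoxD. A difference between the clusters was not tested, and genes of a cluster are neighbors.

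Hoxa3 was at 22.1, 22.3 and 21.6 CPM in WT-SD, 25.4, 26.7 and 25.8 in WT-TGF, 20.2, 22.2 and 22.98 in KO-SD and 17.8, 16.6 and 16.4 in KO-TGF. The SD libraries of the genotypes overlapped, WT rose and KO fell (difference -0.60, standard error 0.0800, adjusted p = 1.69e-06). Hoxa5 was at 26.6, 26.8 and 28.6 CPM in WT-SD, 30.1, 31.3 and 26.6 in WT-TGF, 26.8, 28.3 and 28.8 in KO-SD and 22.4, 21.3 and 20.02 in KO-TGF, so only the KO-TGF libraries stood below the rest (adjusted p = 3.74e-05 for the difference). Hoxa6 had no call in WT (0.038) and fell in KO (-0.48, adjusted p = 8.94e-06). Hoxa9 and Hoxa10 did likewise, with differences of -0.39 (adjusted p = 1.84e-05) and -0.35 (adjusted p = 2e-06).

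**Figure D5:**
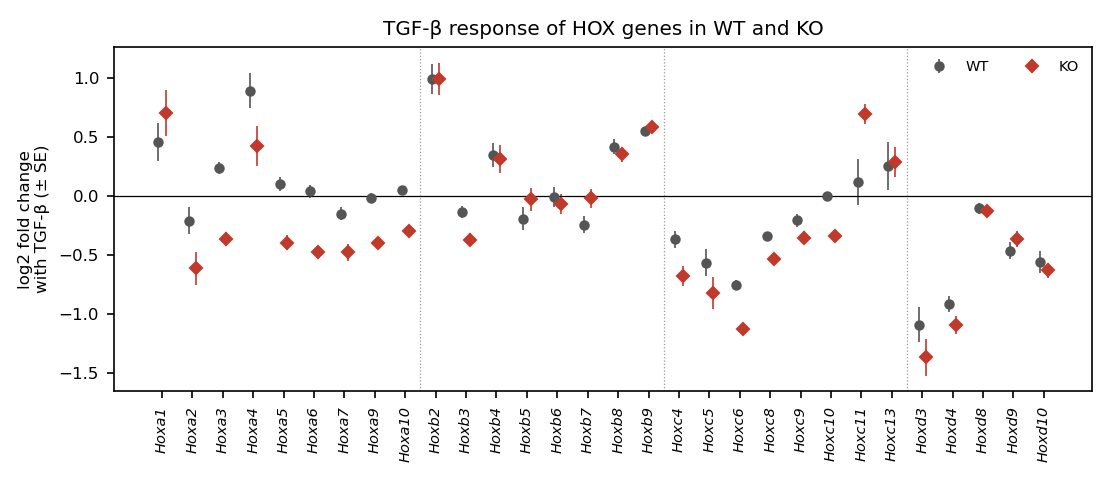
Log2 fold change with TGF-β of the 30 HOX genes tested, in cluster order, in WT (circles) and KO (diamonds), with standard errors. Dotted lines part the HoxA, HoxB, HoxC and HoxD clusters. From Hoxa5 to Hoxa10 the WT values lie between -0.15 and 0.10 and the KO values between -0.30 and -0.48, while in HoxB and HoxD the genotypes lie close together.

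Of 32 transcription factors of the mesenchymal state, 12 were more negative and 3 more positive (median difference -0.071). Prrx1, a homeobox factor of mesenchyme, was at 249.4, 238 and 244 CPM in WT-SD, 116, 117 and 109 in WT-TGF, 141, 126 and 124 in KO-SD and 24.5, 22.995 and 22.1 in KO-TGF. KO was lower in both conditions and fell further (difference -1.40, standard error 0.0740, adjusted p = 1.05e-16). Mkx (mohawk), of tendon cells, rose in WT (0.80) and fell in KO (-0.30, adjusted p = 3.31e-06). Runx1 rose by 1.42 and 1.64 (adjusted p = 0.000164).

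Of 41 axon guidance genes, 17 were more negative and 8 more positive (median difference -0.12). Sema3d responded by -1.54 and -3.27 (adjusted p = 4.89e-16), Sema3f by -1.21 and -2.43 (adjusted p = 1.6e-10), and Ntn1 (netrin 1) by -1.13 and -2.02 (adjusted p = 6.85e-18). The receptor Epha4 fell less in KO, -0.58 against -1.14 (adjusted p = 4.38e-13). Of 21 ion channels, 9 were more negative and 3 more positive (median difference -0.11). Among them was Piezo2, a mechanosensitive channel, at 456, 456 and 459.9 CPM in WT-SD, 1582, 1598 and 1509 in WT-TGF, 857, 809.5 and 849 in KO-SD and 1466, 1462 and 1469.6 in KO-TGF. KO was the higher in SD and slightly the lower in TGF (difference -0.97, standard error 0.0318, adjusted p = 1.08e-19), whereas its relative Piezo1 had no call in WT (0.053) and rose in KO (0.31, adjusted p = 7.38e-07).

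Calls in both directions were found among nucleosome remodelers, a class of proteins that the study links to lncMGC. They were also found among genes in and flanking the region of lncMGC on chromosome 12. Over all genes tested, 25.3% were called in either direction, 16.6% as more negative and 8.67% as more positive. Of 25 genes in a list of ISWI and other remodelers and their partners, 3 were more negative and 5 more positive (median difference -0.031). The 3 more negative ones, Chd3, Smarca2 and Arid2, belong to families other than ISWI. Smarca5, the ISWI ATPase, rose by 0.31 and 0.35 (interval of the difference -0.10 to 0.18). Chd3, a remodeler of the NuRD complex, had no call in WT (0.017) and fell in KO (-0.30, adjusted p = 1.07e-07). Of 8 genes in or flanking the Dlk1-Dio3 region, the imprinted region that holds lncMGC, 2 were more negative and 2 more positive (median difference -0.019). The more positive ones, Wars and Dync1h1, lie outside the region, on either side of it. They start at positions 108860030 and 110601395, against 109540996 for Meg3. The long non-coding RNAs Rian and Meg3 were the more negative ones. Rian was at 45.2, 40.1 and 41.7 CPM in WT-SD, 72.8, 76.7 and 79.1 in WT-TGF, 69.2, 70.9 and 69.6 in KO-SD and 98.4, 94.3 and 105 in KO-TGF (difference -0.34, standard error 0.0670, adjusted p = 0.000112). Meg3 rose in WT (0.26) with no call in KO (-0.020, adjusted p = 0.000257). For both, every KO library was above every WT library of the same condition, narrowly for Meg3 in TGF. By RT-qPCR the study reported the opposite, lower Rian and Meg3 in KO5 cells than in WT cells. It also describes exons that mouse lncMGC has in common with Rian and Mirg. Mirg, whose levels are given above, was under the limit of expression, with a difference of -0.42 (standard error 0.214, adjusted p = 0.202) in a fit without the limit.

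Differences in level were called more often than differences in response, which were called for 25.3% of genes. A difference in response draws on all 4 groups and a difference in level on a pair of them. The former is thus less precise, and the counts do not compare sizes. KO differed from WT in level for 6474 genes (56.1%) in SD and for 6343 (55%) in TGF. Of the 6311 genes with an interval within 0.32 of 0, 60 with at least 5 CPM differed in mean level by more than 2-fold. Pdpn (podoplanin), a mucin-like protein that regulates contraction, was at 281, 276 and 285 CPM in WT-SD, 215, 222 and 219.6 in WT-TGF, 60.5, 59.6 and 57.5 in KO-SD and 44.8, 45.3 and 48.0 in KO-TGF. KO was far below WT in both conditions, and the response was -0.36 in WT and -0.36 in KO (interval of the difference -0.090 to 0.086). Tmem176b, an ion channel of endosomes, was at 397, 397 and 406 CPM in WT-SD, 167, 172 and 170.0 in WT-TGF, 115, 117 and 118 in KO-SD and 48.2, 48.0 and 48.1 in KO-TGF, with responses of -1.24 and -1.28 (interval -0.11 to 0.035). Cldn1, a tight junction protein, responded by -2.63 and -2.57 (interval -0.11 to 0.23) with level differences of -1.88 in SD and -1.82 in TGF (log2, KO minus WT).

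Other genes had a higher level in KO with little difference in response. Ddr2, a receptor of fibrillar collagen, was at 25.2, 25.8 and 22.8 CPM in WT-SD, 14.6, 12.7 and 14.8 in WT-TGF, 266, 262 and 260.1 in KO-SD and 165, 158 and 175 in KO-TGF. The KO libraries were far above WT in both conditions, by 3.42 and 3.57 (log2), and the responses of -0.81 and -0.66 gave an interval of -0.0031 to 0.31. Nrp2, a receptor of semaphorins and VEGF, was higher by 1.65 in SD and 1.87 in TGF (log2), and its small difference in response was called (0.22, standard error 0.0403, adjusted p = 0.00019). Unc5c, a netrin receptor, was higher by 2.22 and 2.05, with an interval of -0.29 to -0.038 and no call after adjustment over all genes (adjusted p = 0.0609). Hoxd10 was higher by 1.42 and 1.35 (interval -0.30 to 0.16).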

How the data were processed

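RNA-seq of poly(A) RNA was available for 12 libraries of MMC. Alignment by the authors used TopHat on mm10 (single-end reads), HTSeq gave counts per RefSeq gene, and the deposited counts of each library are raw whole numbers. Per the study's methods, counting was strand-specific on the reverse setting and left out poor alignments. Rows that name no gene stayed out of library sizes and tests: reads outside annotated exons came to between 10.26% and 15.38% of a library. Libraries held 19898050 to 22827706 counts on genes, and 25230 genes were listed, 24723 of them with an exon length.

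Genes over 1 RPKM in at least 1 library were tested (11530 genes). Counts were scaled by TMM and fitted in edgeR 4.0.16 (R 4.3.3) with 1 mean per group. The contrast (KO-TGF minus KO-SD) minus (WT-TGF minus WT-SD) was tested by quasi-likelihood, with p-values adjusted over all genes tested after Benjamini-Hochberg, with calls at FDR <5%. CPM were computed from the same scaling. The fitting steps were tested on simulated data. DESeq2 1.42.0, a likelihood ratio test, other scalings, filters and TMM references, a replicate block and fits without each library were the alternatives, of which the TMM references were chosen after seeing the data. The spread within groups was above counting noise (chi-square over its degrees of freedom, 1.35 to 5.41).

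Genes were named by a rule: the largest differences with at least 5 CPM in a group and no overlap, the strongest opposite responses, up to 3 genes in each direction per gene list, the largest level differences with parallel responses, and known targets of TGF-β. Another 16 genes were added after their values were seen. Some genes that these choices named are not reported here. The gene lists and named targets were chosen with earlier results of these data known. Promoter sequences came from RefSeq on GRCm38.p6.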

Additional observations from a re-analysis of the deposited data

Results flagged for a closer look

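The log2 response to TGF-β differed between the genotypes, by the test of the difference itself, for 1916 genes that were more negative in KO and 1000 that were more positive. Among them, 102 genes rose in WT and fell in KO, and 43 fell in WT and rose in KO. The groups hold 3 libraries each, so single libraries were not tested for standing apart.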

How the results depend on the processing

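The count of more negative and more positive differences over 1.5-fold moved by less than 1.5 times under every alternative run, from 538 to 821 and from 101 to 153. At FDR <5% alone, library size scaling gave 2648 more negative and 686 more positive genes, DESeq2 1335 and 1019, KO-SD library 1 as the TMM reference 1542 and 1449, and a 1% FDR 660 more positive genes. With library size scaling, 2642 genes rose in WT and 2298 in KO, and in TGF 5408 genes were lower and 1643 higher in KO. The median difference ranged from -0.0766 with library size scaling to 0.00857 with the KO-SD reference.

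The labels number the libraries 1 to 3 in each group. Of 18 same-number pairs, 8 correlated above 0.1 in their deviations (-0.131 to 0.397). The main fit did not take the numbers as a pairing, and whether they mark one was not tested. A replicate block gave 2078 and 1090 genes, and 621 and 124 over 1.5-fold. In 25 of 36 comparisons a library correlated best with its own number.

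Leaving out each library in turn gave 1378 to 2039 more negative and 869 to 1324 more positive genes, and 538 to 622 and 114 to 152 over 1.5-fold. WT responses ranged from 3957 to 4392 genes down and 3938 to 4235 up, and KO responses from 4110.0 to 4501 down and 3873 to 4081 up. Levels in SD ranged from 2627 to 3194 genes lower and 3194 to 3551 higher, and in TGF from 2706 to 3311 lower and 2863 to 3261 higher. The lowest share of more negative genes came without a KO-TGF library (51.7% without library 1). TMM chose its reference library anew in each of these fits, and the part of that choice was not tested.

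For named genes, 223 of the values under alternatives lost their call (42 genes), 4 gained one (3 genes) and 58 changed sign (14 genes). None of the sign changes was in a gene with a called difference. Smarca5 was at -0.0046 with library size scaling. In DESeq2 the values were 0.0058 for Hecw1, 0.026 for Pdpn, 0.012 for Skil, 0.011 for Smad7 and 0.012 for Tgfb1. With the WT-SD reference they were 0.014 for Pdpn and 0.00034 for Tgfb1, and with the KO-TGF reference 0.017 for Pdpn, 0.0035 for Skil, 0.0029 for Smad7 and 0.0039 for Tgfb1. With the KO-SD reference they were 0.018 for Hecw1, 0.0084 for Inhba, 0.0044 for Nox4, 0.037 for Pdpn, 0.024 for Skil, 0.023 for Smad7 and 0.024 for Tgfb1. Without 1 library, ranges crossed 0 for Hecw1 (-0.060 to 0.041), Hoxd10 (-0.19 to 0.073), Il11 (-0.28 to 0.010), Inhba (-0.082 to 0.056), Nox4 (-0.094 to 0.021), Pcdhgb2 (-0.013 to 0.15), Pcsk6 (-0.12 to 0.0095), Pdpn (-0.023 to 0.057), Skil (-0.052 to 0.042), Smad7 (-0.070 to 0.026), Srebf1 (-0.0054 to 0.086), Tgfb1 (-0.041 to 0.042) and Tmem176b (-0.055 to 0.00082), and reached 0.0011 for Smarca5 (highest 0.11). The cause of these changes was not tested. The depth limits what can be said of genes under about 5 CPM, whose standard errors are the widest.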
